A study of Mus musculus with 3 samples.

Results

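The 9 genes described here, *Hk1*, *Hk2*, *Hk3*, *Pfkl*, *Pfkp*, *Pkm*, *Pklr*, *Ldha* and *Pfkfb3*, encode isozymes of the regulated steps of glycolysis. They were taken by name from the columns of both deposited tables, which hold 21550 and 22517 genes. All 9 were present in both tables. The question was which isozyme each liver cell type uses by its RNA, and whether that use differed between the 2 libraries.

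Glycolysis splits glucose into pyruvate, and several of its steps can be run by more than 1 enzyme of the same activity. Hexokinases trap glucose in the cell by phosphorylating it. Phosphofructokinases commit the sugar to glycolysis, and the bifunctional PFKFB enzymes set the level of their activator, fructose 2,6-bisphosphate. Pyruvate kinases make the pyruvate, and lactate dehydrogenases exchange pyruvate and lactate. Hepatocytes are known for a set of their own, which includes the liver phosphofructokinase *Pfkl* and the liver pyruvate kinase *Pklr*, whereas immune cells are known for *Pkm* and the high-affinity hexokinases.

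Single cells from mouse liver were captured on BD Rhapsody beads, and unique molecular identifiers (UMIs), which count RNA molecules, were given per gene and cell. The first library is of wild-type C57BL/6J mice on a normal chow diet (NCD). The second is a pool of wild-type and *Chi3l1*-/- mice (*Chil1*-/- in the labels) kept for 16 weeks on a high-fat, high-cholesterol diet (HFHC), and no column gave the genotype of a cell, so the pool is described as a whole. The NCD library carries the title MCD and a file header of APAP0h, and it was matched to its table by elimination. In the study MCD stands for another diet, deficient in methionine and choline, so the title does not match the diet given here. That diet rests on the study's methods. How many mice went into each library is not given in the sources used here. Each condition is 1 library, so the effects of the diet, the capture, the library preparation and the pool's *Chi3l1*-/- cells cannot be told apart. No test between the libraries was possible. Every interval below is a 95% interval for counting error only, except where hepatocyte RNA was taken off. Those intervals treat the remaining UMIs as counted and are too narrow.

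The NCD library held 30734 cells and 53720863 UMIs and the HFHC pool 21601 cells and 71981673 UMIs. After the filter on genes and mitochondrial UMIs, 23346 and 19625 cells remained, with medians of 1322.5 and 1622 UMIs per cell. The libraries shared 756 cell barcode indices, where 750.4 would be shared by chance. Cells were clustered without the 9 genes, and clusters were named from marker genes. The classes are therefore hepatocyte-like, Kupffer cell-like and so on, and are written below as hepatocytes, KCs, monocyte-derived macrophages (MoMFs), monocytes, neutrophils, cDC1s, pDCs, T cells, NK cells or ILC1s, B cells and endothelial cells. The labels call the preparation parenchymal and the study's methods describe non-parenchymal cells; 30.3% of the NCD cells and 63.8% of the pool's cells fell into the hepatocyte class. Hepatocytes numbered 7069 and 12526, KCs 3034 and 490, monocytes 456 and 624, T cells 2886 and 2583, B cells 1343 and 817, endothelial cells 2583 and 641, and MoMFs only 81 and 79 (NCD library first, as in all pairs below). Hepatocytes were shallow, with medians of 521 and 847 UMIs, against 4373 and 8944 in KCs. The cDC1 cluster had 4 cDC1 markers among its 10 leading genes, and at most 2 from the list of any other class. Of the monocyte clusters, m2 had 2 of its own and at most 2 of another list, and m5 had 1 and 1. Some genes stand in more than 1 list.

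Levels are in counts-per-million (CPM): all UMIs of a gene in the cells of 1 class and library were added up and divided by the total UMIs of those cells. The counts come from 3′ ends, so they do not depend on transcript length in a known way. Levels of different genes are therefore set side by side only as shares of the UMIs of one enzyme family. A share still compares different genes, which may be captured unequally. Use of an isozyme means below its RNA level or share, and protein and enzyme activity were not measured. Spliced forms of 1 gene, such as M1 and M2 of *Pkm* or the liver and red cell forms of *Pklr*, were not separated.

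By the GRCm38.p6 annotation of RefSeq, *Pklr* lies at chr3:89136122-89146815, *Ldha* at chr7:46842274-46855627, *Pkm* at chr9:59656576-59679372 and *Pfkfb3* at chr2:11471430-11554071. *Hk1* lies at chr10:62268855-62379920, *Hk2* at chr6:82725025-82774454, *Hk3* at chr13:55005985-55021475, *Pfkl* at chr10:77986947-78009807 and *Pfkp* at chr13:6579874-6649060. Promoters are shown for *Pklr* and *Ldha*, which were highest in hepatocytes, and for *Hk3*, which was highest in neutrophils and KCs, as the 250 bases before a start site, read 5′ to 3′ on the strand of the gene. *Pklr* is transcribed from separate promoters, the upstream one known for red cells and the downstream one, inside the gene, for liver. Capitals mark matches to CACGGGNNNNNCCCGTG (the letters of the carbohydrate response element known from the liver pyruvate kinase promoter) in *Pklr*, to the E box CACGTG in *Ldha*, and to GAGGAA or its reverse complement TTCCTC (the core letters read by PU.1, a myeloid transcription factor) in *Hk3*.
Pklr, upstream start, plus strand of chr3:89135892-89136141: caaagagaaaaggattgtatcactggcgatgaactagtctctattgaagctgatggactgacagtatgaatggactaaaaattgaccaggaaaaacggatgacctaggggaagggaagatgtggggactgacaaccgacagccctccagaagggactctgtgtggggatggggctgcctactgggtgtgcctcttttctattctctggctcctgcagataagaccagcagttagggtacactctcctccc
Pklr, downstream start, plus strand of chr3:89136373-89136622: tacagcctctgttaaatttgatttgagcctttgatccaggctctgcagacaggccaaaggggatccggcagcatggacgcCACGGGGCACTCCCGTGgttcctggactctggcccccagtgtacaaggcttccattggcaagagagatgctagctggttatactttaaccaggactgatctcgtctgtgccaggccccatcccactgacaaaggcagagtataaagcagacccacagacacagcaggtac
Ldha, first of 2 starts, plus strand of chr7:46845554-46845803: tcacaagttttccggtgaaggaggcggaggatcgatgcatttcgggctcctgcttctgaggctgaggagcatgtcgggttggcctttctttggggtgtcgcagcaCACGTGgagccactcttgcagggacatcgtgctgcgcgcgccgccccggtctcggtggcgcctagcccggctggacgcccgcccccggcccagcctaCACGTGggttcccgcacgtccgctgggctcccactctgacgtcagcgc
Hk3, minus strand of chr13:55021386-55021635: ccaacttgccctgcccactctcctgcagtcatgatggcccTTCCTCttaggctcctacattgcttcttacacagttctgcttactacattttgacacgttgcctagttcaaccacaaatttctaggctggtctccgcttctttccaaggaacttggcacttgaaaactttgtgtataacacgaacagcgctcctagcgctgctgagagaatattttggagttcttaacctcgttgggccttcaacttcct
Among 32851 promoter windows of this length, searched on both strands, 1 held the first motif, and it is the downstream *Pklr* promoter, where the match starts 170 bases before the start site. That motif is known from this very promoter, so its match there was fixed in advance. The count of 1 shows only how narrow the string is. The *Ldha* window held 2 E boxes, 145 and 48 bases before the start, where 6.02% of all windows held at least 1 and 0.429% at least 2. The window of the other *Ldha* start, chr7:46846832-46847081, held none. Both starts lie downstream of the annotated beginning of the gene at chr7:46842274, for which no window was searched. The *Hk3* window held 1 match to the last motif, 210 bases before the start, as did 23.3% of all windows, among them 1 window each of *Hk1* and *Pfkfb3*. The windows of *Pkm* and *Hk2* held none of the 3 motifs. A match is only a string of letters, and binding was not measured in these data.

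Pyruvate kinase use split hepatocytes from every other class. *Pklr*, the liver and red cell pyruvate kinase, stood at 204 CPM (192 to 216) in NCD hepatocytes, with 1064 UMIs, and at 403 CPM (394 to 413) in the hepatocytes of the HFHC pool, with 6870. It made up 89.1% (87.2 to 90.8) and 96.3% (95.9 to 96.8) of the pyruvate kinase UMIs of hepatocytes. *Pkm*, the pyruvate kinase of most other tissues, stood at only 24.9 CPM (20.8 to 29.6) and 15.4 CPM (13.6 to 17.4) there. After each cell was thinned to 1000 UMIs, 18.5% of 1344 NCD hepatocytes and 31.1% of 5323 pool hepatocytes held a *Pklr* UMI, against 0.601% and 1.84% of B cells, which are not known to use the gene. Without thinning the shares were 12.2% and 31.2% in hepatocytes and 1.64% and 7.22% in B cells, whose median depths were 1304 and 2610 UMIs.

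Outside hepatocytes *Pkm* was the pyruvate kinase that was counted. It supplied 89.6% to 100% of pyruvate kinase UMIs over the other 10 classes of the NCD library. In the HFHC pool it supplied 91.4% to 98.8% in 8 of them, 76.5% in B cells and 67.4% in endothelial cells. Neutrophils, short-lived granulocytes known to rely on glycolysis, had the highest *Pkm* level in both libraries, 831 CPM (801 to 863) and 706 CPM (649 to 767). Monocytes followed with 465 CPM (433 to 499) and 488 CPM (466 to 510). In the NCD library, endothelial cells, MoMFs, KCs, T cells, cDC1s and NK cells or ILC1s then lay between 227 and 269 CPM, and the interval of each overlapped that of its neighbour in the order. In the pool KCs stood above that group with 343 CPM (326 to 361), against 247 CPM in T cells and 242 CPM in MoMFs. B cells were lowest among the leukocytes, at 122 and 125 CPM.

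**Figure D1:**
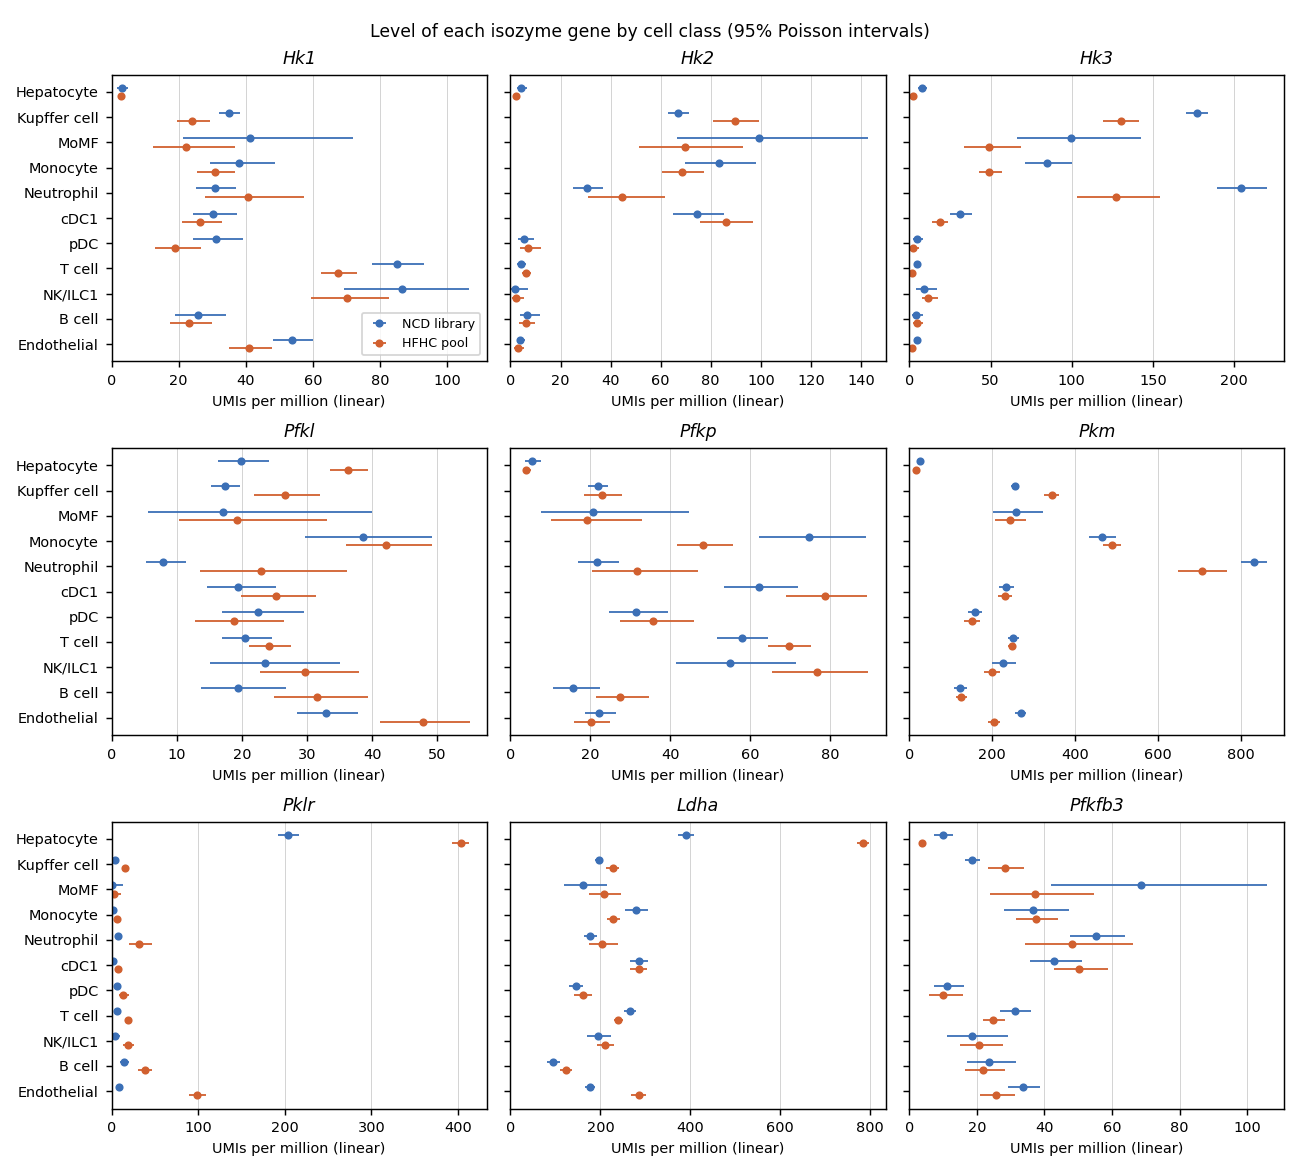
Level of each of the 9 genes in 11 cell classes, in CPM on a linear axis, with 1 panel per gene; points are class sums of the NCD library (blue) and the HFHC pool (orange), and bars are exact 95% Poisson intervals. Hepatocytes stand apart for *Pklr* (204 and 403) and *Ldha* (390 and 785), neutrophils for *Pkm* (831 and 706), and neutrophils and KCs for *Hk3*.

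The *Pklr* counted outside hepatocytes moved with albumin RNA, closely in most classes of the HFHC pool and more loosely in the NCD library. If all of it were free hepatocyte RNA, each class would hold *Pklr* and *Alb* in the ratio of the hepatocytes of its library. At that ratio endothelial cells would hold 47.9 and 365 *Pklr* UMIs, and 54 and 389 were counted. T cells would hold 25.7 and 156, and 32 and 179 were counted. KCs would hold 109 and 79, and fewer, 61 and 67, were counted. Monocytes and cDC1s of the NCD library also lay below the ratio, with 3 UMIs against 5.95 and 4 against 6.89. B cells were furthest above the ratio, with 27 and 95 UMIs where 14.3 and 70 would stand at the ratio. In pDCs 14 and 22 were counted, where 7.58 and 19.8 would stand. Summed hepatocyte marker RNA in endothelial cells was 2468 CPM in the NCD library and 9507 CPM in the pool. With hepatocyte RNA taken off in proportion to *Alb*, the *Pklr* share of pyruvate kinase fell to 0.38% and 2.90% in endothelial cells, 5.20% and 7.52% in B cells and 0% in KCs of both libraries. MoMFs of the NCD library held no *Pklr* UMI among 291873, which allows a level of up to 10.3 CPM.

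**Figure D2:**
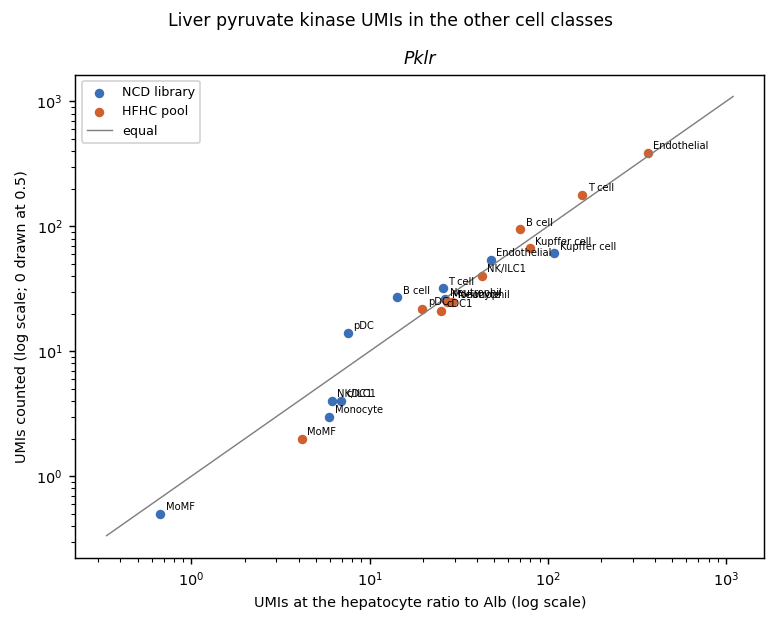
UMIs of *Pklr* counted in each class other than hepatocytes (vertical, log scale) against the number at the hepatocyte ratio to *Alb* (horizontal, log scale), with the NCD library in blue, the HFHC pool in orange and a grey line where both are equal. Most points of the pool lie near the line, as in endothelial cells, where 389 *Pklr* UMIs stand against 365 at the ratio. In the NCD library several points lie off it, below for KCs (61 against 109) and above for pDCs (14 against 7.58) and B cells (27 against 14.3).

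Hexokinase use differed among the classes. In hepatocytes *Hk1*, *Hk2* and *Hk3* were each at or below 7.85 CPM. KCs and neutrophils used *Hk3*, a hexokinase known from myeloid cells. Lymphocytes, pDCs and endothelial cells used *Hk1*, the broadly expressed form bound to mitochondria. Monocytes and MoMFs split their UMIs between *Hk2*, the inducible form also bound to mitochondria, and *Hk3*, and cDC1s used mostly *Hk2*. *Hkdc1*, another gene of the family, had 1 UMI in all 22 class sums.

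*Hk3* in KCs, from 2593 and 547 UMIs, was at 177 CPM (170 to 184) and at 130 CPM (119 to 141). It made up 62.9% (61.4 to 64.3) and 52.7% (49.7 to 55.8) of KC hexokinase UMIs. Neutrophils had 204 CPM (189 to 220) and 127 CPM (103 to 154), a share of 75.9% and 56.8%, and their interval overlapped that of KCs in the pool but not in the NCD library. Monocytes had 85 and 49.4 CPM and MoMFs 99.4 and 49 CPM, which did not differ beyond counting error. KCs thus exceeded MoMFs by a log2 difference of 0.78 (0.31 to 1.41) in the NCD library and 1.37 (0.90 to 1.96) in the pool, and monocytes by 1.05 and 1.39. The MoMF class also held KC marker RNA, at 4187 and 2884 CPM, against 5146 and 6005 CPM of its own markers. Both lists hold *Adgre1*, so the 2 sums are not separate. It numbered 459 and 601 cells when cells were classed one by one from their markers. The difference from KCs was not taken again with those cells. *Hk3* was at 31.3 and 18.6 CPM in cDC1s and at or below 11.8 CPM in all other classes. Thinned to 1000 UMIs, 16.6% and 10.1% of KCs and 18.5% and 12.8% of neutrophils held an *Hk3* UMI, against 0.4% and 0.491% of B cells. Without thinning, those shares were 47.6% and 51.4% in KCs, 18.9% and 24.1% in neutrophils and 0.596% and 1.35% in B cells.

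*Hk2* was counted mainly in the same myeloid cells. It was counted at 99.4 and 69.8 CPM in MoMFs, 83.1 and 68.4 CPM in monocytes, 74.5 and 85.9 CPM in cDC1s, 67.1 and 89.6 CPM in KCs and 30.4 and 44.5 CPM in neutrophils. In each other class it was at or below 7.05 CPM. The intervals of MoMFs, monocytes, cDC1s and KCs overlapped from neighbour to neighbour in both libraries. Compared directly, KCs stood below monocytes in the NCD library, by a log2 difference of -0.32 (-0.57 to -0.04). In the pool they stood above them, by 0.39 (0.16 to 0.62). *Hk2* was the leading hexokinase of cDC1s, with 54.5% (49.4 to 59.5) and 65.1% (60.2 to 69.7) of the family's UMIs. In monocytes its share was 40.1% and 45.6%, against 41% and 32.9% for *Hk3*.

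*Hk1* was highest in NK cells or ILC1s, at 86.4 CPM (69.3 to 106) and 70.3 CPM (59.4 to 82.5), and in T cells, at 85 CPM (77.6 to 93) and 67.5 CPM (62.3 to 72.9). These classes did not differ from each other beyond counting error, and both stood above endothelial cells, at 53.8 and 40.9 CPM. The remaining leukocytes lay between 18.8 and 41.1 CPM, and hepatocytes at 3.06 and 2.82 CPM. *Hk1* supplied 87.9% and 85.1% of hexokinase UMIs in T cells, 87.1% and 81% in NK cells or ILC1s, 70.2% and 62.7% in pDCs and 64.5% and 55.3% in B cells. In endothelial cells its share was 79.7% and 62.4%, and 85.2% and 90.6% with hepatocyte RNA taken off. Shares of the hexokinase family are given outside hepatocytes only.

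**Figure D3:**
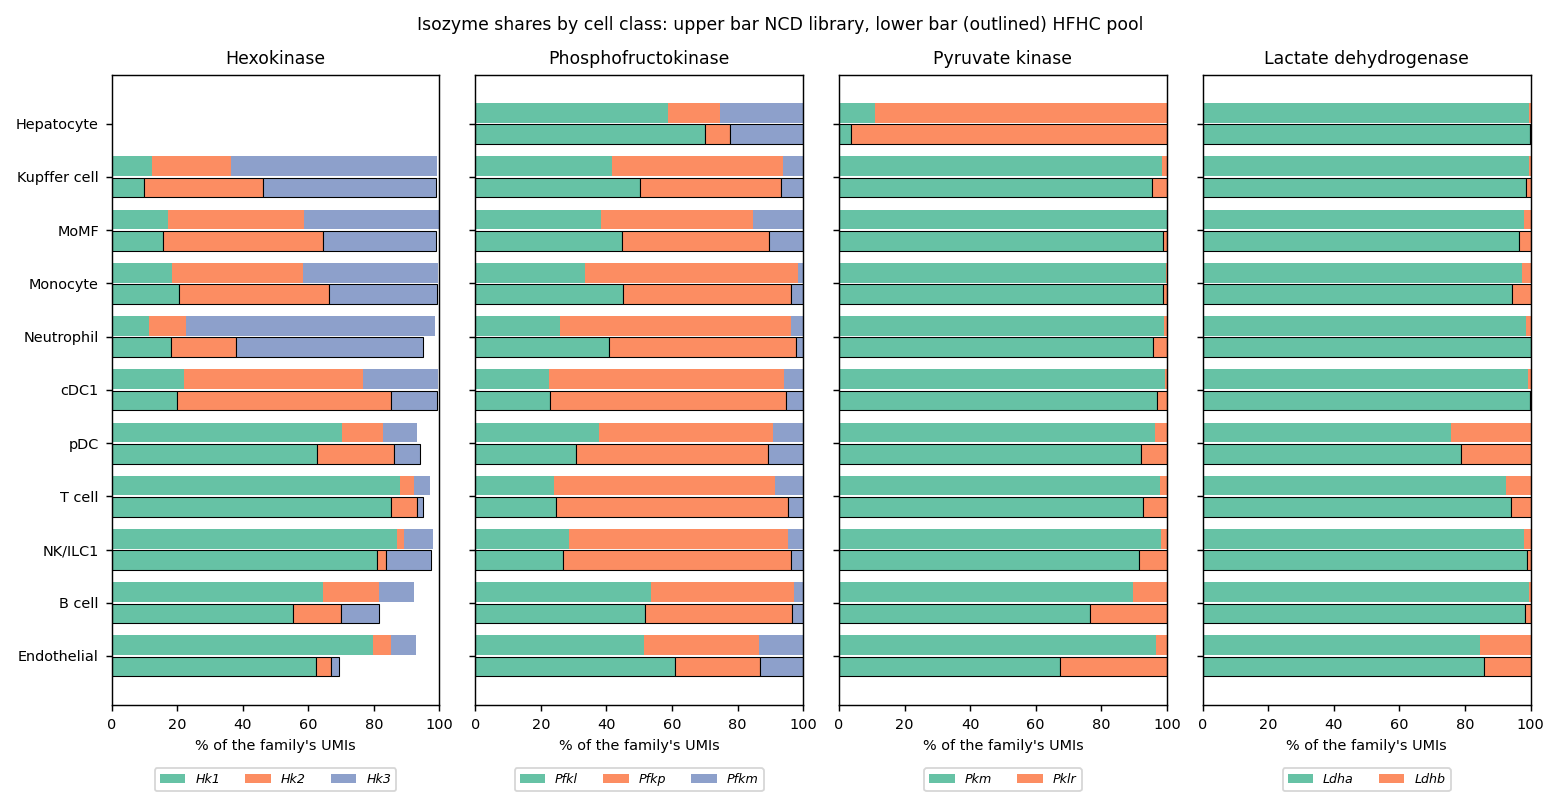
Share of each isozyme in the UMIs of its family (hexokinase, phosphofructokinase, pyruvate kinase, lactate dehydrogenase; horizontal, percent) in 11 cell classes, with the NCD library as the upper bar and the HFHC pool as the lower, outlined bar. In the hexokinase panel only the members are drawn, hepatocytes are left out, and bars need not reach 100% because the other genes of the family also count in the total. Hepatocytes are mostly *Pklr* in their pyruvate kinase, KCs mostly *Hk3* (62.9% and 52.7%) and *Pkm*, and T cells mostly *Hk1* (87.9% and 85.1%) and *Pfkp*.

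Phosphofructokinase was mixed in every class. Hepatocytes leaned on the liver form, *Pfkl*, with 58.8% (51.1 to 66.1) and 70% (66.9 to 73) of the family's UMIs, and *Pfkm*, the muscle form, gave 25.4% and 22.3%. Endothelial cells were alike in their first form, with 51.6% and 61% *Pfkl*. T cells, NK cells or ILC1s and cDC1s leaned on *Pfkp*, the platelet form, with 66.7% to 72% of UMIs in both libraries. KCs lay between, at 52.3% (48.2 to 56.3) and 43% (36.5 to 49.8) *Pfkp*, and B cells at 43.5% and 45%. The levels behind these shares were low. *Pfkl* spanned 7.9 to 38.6 CPM over the classes of the NCD library and 18.8 to 47.7 CPM in the pool, and the intervals of neighbouring classes overlapped throughout both orders. Classes further apart did differ, and monocytes exceeded KCs 2.24-fold in the NCD library and 1.58-fold in the pool.

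*Pfkp* separated the classes more. It was at 74.7 and 48.3 CPM in monocytes, 62.2 and 78.7 CPM in cDC1s, 57.9 and 69.7 CPM in T cells and 55 and 76.9 CPM in NK cells or ILC1s. KCs had 21.8 and 22.8 CPM, so monocytes exceeded them 3.44-fold in the NCD library and 2.11-fold in the pool. Hepatocytes had 5.36 and 3.99 CPM, the lowest of the classes in both libraries.

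*Pfkfb3*, the PFKFB enzyme that favours synthesis of the phosphofructokinase activator, was lowest in hepatocytes, at 9.96 and 3.70 CPM, and in pDCs, at 11.1 and 9.98 CPM. MoMFs had 68.5 and 37.1 CPM, neutrophils 55.3 and 48.3, cDC1s 42.9 and 50.3, monocytes 36.8 and 37.5, endothelial cells 33.7 and 25.7 and T cells 31.2 and 24.8. KCs had 18.6 and 28.3 CPM, a log2 difference from MoMFs of -1.94 (-2.54 to -1.15) in the NCD library and -0.44 (-1.02 to 0.29) in the pool. When all classes were ranked by level within each library, neighbours from the highest class down to T cells had overlapping intervals. Classes further apart in the ranking could still differ. It was the leading *Pfkfb* gene of cDC1s (76.7% and 80.2% of UMIs), T cells (78.6% and 71.5%), endothelial cells (75% and 59.8%, or 76.8% and 77.4% with hepatocyte RNA taken off) and KCs (57.6% and 60.4%). Neutrophils counted more *Pfkfb4* (66.9% and 62.2%), and hepatocytes more *Pfkfb1* (65% and 84.6%), the liver gene of the family.

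Lactate dehydrogenase was *Ldha*, the form of tissues that make lactate, in nearly all UMIs of most classes. Its level was highest in hepatocytes, 390 CPM (373 to 407) in the NCD library and 785 CPM (772 to 798) in the pool. cDC1s, monocytes and T cells followed in the NCD library with 286, 279 and 266 CPM, and B cells were lowest in both libraries with 94.3 and 123 CPM. The heart form, *Ldhb*, took 24.2% (20.3 to 28.5) and 21.1% (16.9 to 25.8) of lactate dehydrogenase UMIs in pDCs, 15.4% and 14.1% in endothelial cells and 7.46% and 5.9% in T cells. With hepatocyte RNA taken off, the *Ldhb* share of endothelial cells was 16.6% (14.5 to 18.9) and 30.9% (27.2 to 34.7), and that of pDCs 25% (21 to 29.4) and 23.7% (19.1 to 28.9). In hepatocytes it took 0.391% and 0.179%. Processed pseudogenes of *Ldha*, *Eno1* and *Gapdh* exist in the mouse genome, and how reads that match them were counted is not given in the sources used here, so the levels of these genes are uncertain to that extent.

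Between the libraries, a log2 ratio of HFHC pool over NCD library, with 1 UMI added to each count, was taken for the 65 pairs of gene and class whose UMIs in both tables summed to 100 or more. At 2-fold or more, 5 pairs were higher in the pool, *Ldha* in hepatocytes and *Pklr* in KCs, T cells, B cells and endothelial cells, and 1 was lower, *Pfkfb3* in hepatocytes. Among all genes with as many UMIs, 5.78% were higher and 7.5% lower by 2-fold in hepatocytes, 4.94% and 3.25% in KCs, 5.89% and 3.06% in T cells, 3.97% and 2.14% in B cells and 9.69% and 4.36% in endothelial cells. In the classes where no member passed 2-fold, the shares were 3.09% and 2.96% in monocytes, 6.18% and 4.38% in MoMFs, 8.78% and 4.67% in neutrophils, 3.93% and 2.57% in cDC1s, 2.86% and 2% in pDCs and 3.72% and 2.31% in NK cells or ILC1s. With hepatocyte RNA taken off, the 4 *Pklr* pairs outside hepatocytes had under 100 UMIs and were not compared.

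In hepatocytes *Ldha*, *Pklr* and *Pfkl* were higher in the pool, and *Pkm* and *Pfkfb3* were lower. The log2 ratio was 1.01 (0.94 to 1.08) for *Ldha*, just past 2-fold, and 0.98 (0.89 to 1.08) for *Pklr*, just short of it. The median of all 9364 genes was 0.08. *Ldha* fell short of 2-fold with scaling by the median ratio, at 0.93, and with cells classed one by one from their markers, at 0.97. *Pfkl* was higher by 0.86 (0.57 to 1.18), and by 0.56 after thinning to 1000 UMIs, which also left out shallower cells and kept 1344 and 5323 hepatocytes. *Pkm* was lower, at -0.70 (-1.0 to -0.38), as was *Pfkfb3*, at -1.43 (-1.98 to -0.87) from 52 and 63 UMIs. Summed neutrophil markers in hepatocytes were 694 CPM in the NCD library and 61.7 CPM in the pool, and KC markers 522 and 240 CPM. Their part in the lower *Pkm* and *Pfkfb3* of pool hepatocytes was not tested. With cells called doublets removed, the *Pkm* ratio was -0.37 (-0.71 to 0.01) and *Pfkfb3* fell under 100 UMIs. Without integration of the libraries the *Pkm* ratio was -0.34 (-0.71 to 0.07).

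The hepatocytes of the libraries came mostly from different clusters. Clusters a2 and a4, each at least 75% NCD cells, gave 5999 of the 7069 NCD hepatocytes, and clusters a0, a8, a11, a13 and a22, each at least 75% pool cells, gave 9389 of the 12526 pool hepatocytes. Within the 3 clusters that held at least 200 cells of each library, the direction of *Pklr* and *Ldha* was the same. *Pklr* stood at 190 CPM (174 to 207) and 392 CPM (366 to 420) in cluster a2, at 261 (210 to 322) and 427 (403 to 452) in cluster a15 and at 185 (149 to 228) and 238 (220 to 257) in cluster a9. *Ldha* stood at 371 and 737 CPM in a2, 347 and 920 in a15 and 477 and 780 in a9, with no overlap of intervals. The size of the *Pklr* difference therefore varied among clusters of the same class. With the shallow clusters a0 and a4 left out, the ratios were 1.03 for *Pklr* and 1.07 for *Ldha*.

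In KCs the 3 hexokinases did not move together. *Hk2* was higher in the pool by 0.42 (0.24 to 0.59), while *Hk3* was lower at -0.44 (-0.58 to -0.31) and *Hk1* at -0.53 (-0.87 to -0.24). The *Hk2* share of KC hexokinase was 23.9% (22.6 to 25.2) in the NCD library and 36.4% (33.4 to 39.4) in the pool. When KCs were thinned to 1000 UMIs, which left 2675 and 464 cells, the *Hk2* ratio was 0.01 (-0.60 to 0.50) and the *Hk3* ratio -0.80 (-1.28 to -0.40). With no upper limit on genes per cell, the *Hk3* ratio was smaller, at -0.30 (-0.38 to -0.23). *Pkm* was higher by 0.44 (0.35 to 0.52), *Pfkl* by 0.62 (0.28 to 0.94), *Pfkfb3* by 0.61 (0.28 to 0.92) and *Ldha* by 0.22 (0.11 to 0.32), and *Pfkp* stood at 0.07 (-0.28 to 0.40). With hepatocyte RNA taken off, the *Ldha* ratio was 0.09 (-0.03 to 0.20), which includes 0. The *Pklr* ratio of KCs was 1.93, and 0.91 (0.49 to 1.38) with no upper limit on genes per cell, where it no longer passed 2-fold and KCs numbered 3163 and 1059 rather than 3034 and 490. The median of all 9205 genes in KCs was 0.01. A list of 12 genes known to be induced by tissue dissociation had a median of 1.87 in KCs, and 9 of its 12 genes were higher by 2-fold. Its median was above 0 in every class, from 1.19 in hepatocytes, where 7 of 12 genes were higher by 2-fold, to 3.19 in pDCs. Its part in the ratios of any class was not tested.

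Lower *Hk3* in the pool was found in each of the 4 classes where it had enough UMIs: -0.79 (-1.10 to -0.46) in monocytes, -0.74 (-1.25 to -0.25) in cDC1s, -0.67 (-1.0 to -0.38) in neutrophils and -0.44 in KCs. None of the 4 reached 2-fold. With cells classed one by one from their markers, monocytes stood at -1.44. Summed neutrophil markers were also lower in the pool, at 897 and 287 CPM in monocytes, 477 and 138 in cDC1s and 204 and 81.8 in KCs. Summed KC markers were at 1136 and 300 CPM in monocytes, 275 and 103 in cDC1s and 868 and 851 in neutrophils. The part of such RNA in the lower *Hk3* was not tested. *Pfkl* was above 0 in 7 of 7 classes with enough UMIs, from 0.12 in monocytes to 0.86 in hepatocytes, and the interval excluded 0 in hepatocytes, KCs, B cells and endothelial cells. *Hk1* was below 0 in 8 of 9 classes, and the interval excluded 0 in KCs, pDCs, T cells and endothelial cells. The endothelial *Hk1* ratio was -0.10 (-0.39 to 0.18) with hepatocyte RNA taken off. *Pfkp* went in different directions, with -0.63 (-0.96 to -0.29) in monocytes (-0.24 with cells classed one by one), 0.27 (0.07 to 0.46) in T cells and 0.47 (0.04 to 0.95) in NK cells or ILC1s.

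The *Ldha* difference of endothelial cells, 0.69 (0.56 to 0.81), and of B cells, 0.38 (0.11 to 0.66), moved with hepatocyte RNA. With that RNA taken off, the ratio was -0.32 (-0.49 to -0.15) in endothelial cells and -0.18 (-0.51 to 0.14), an interval that includes 0, in B cells. Intervals of this kind leave out the error of the UMIs taken off and are too narrow. In T cells *Ldha* went from -0.15 (-0.24 to -0.05) to -0.28 (-0.38 to -0.18). The endothelial *Pkm* ratio was -0.40 (-0.52 to -0.27), and -0.10 (-0.23 to 0.02) with hepatocyte RNA taken off.

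**Figure D4:**
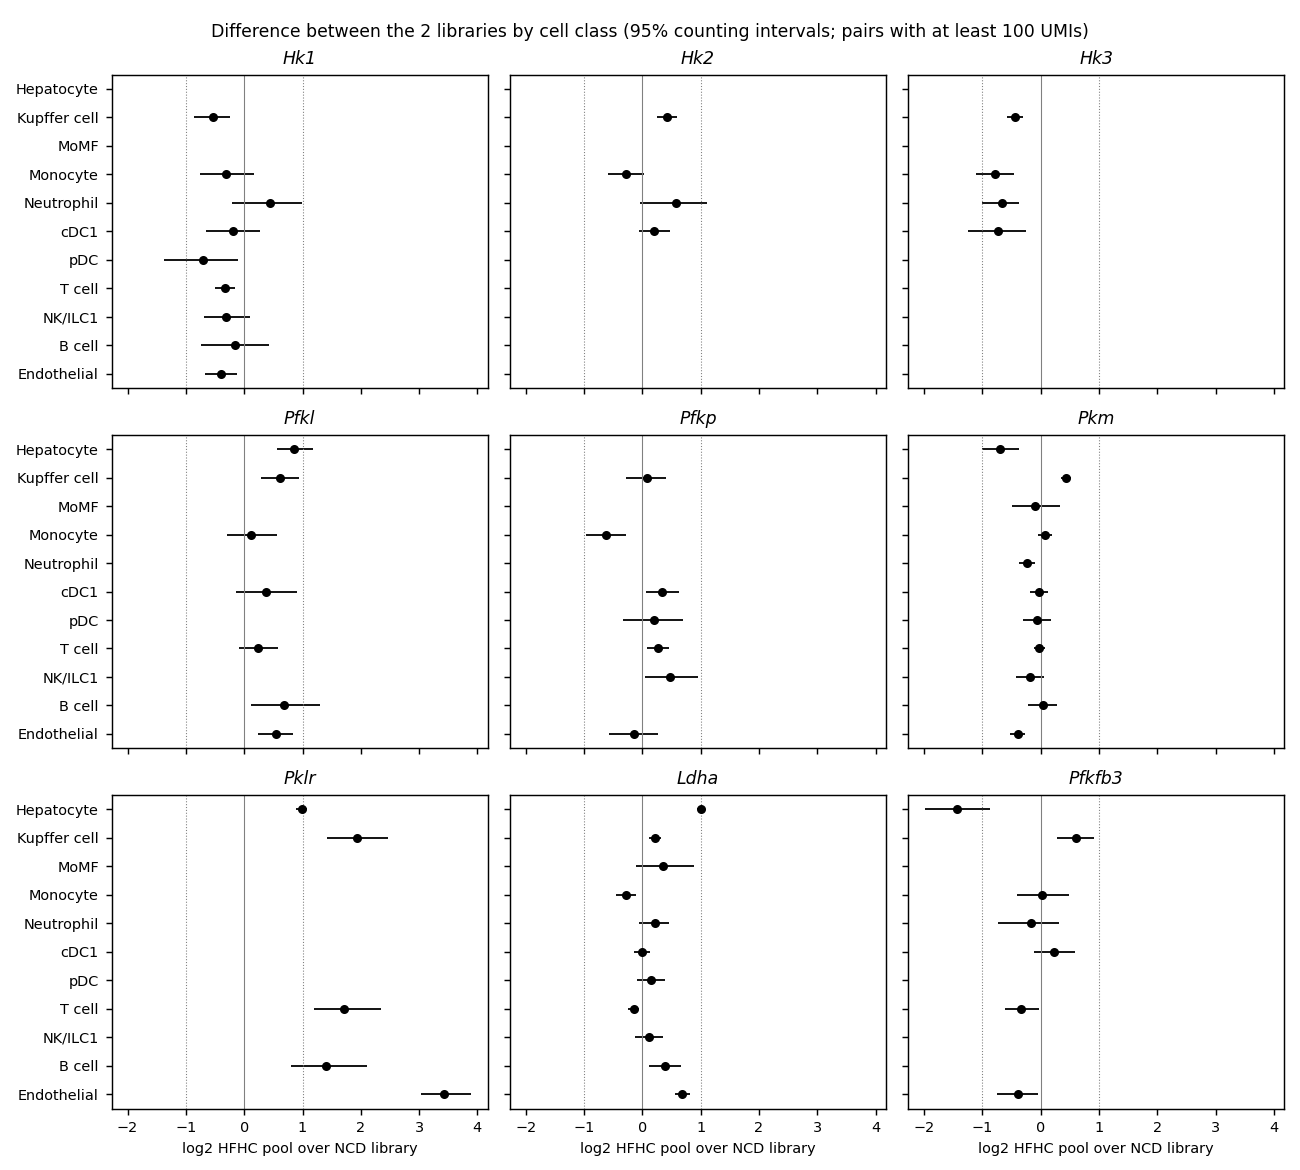
Log2 ratio of HFHC pool over NCD library for each gene (panels) and cell class (rows), for the 65 pairs with at least 100 UMIs; bars are 95% counting intervals, the solid line marks 0 and the dotted lines 2-fold. A total of 6 pairs lie past a dotted line, 5 above and 1 below, and the 4 *Hk3* points all lie left of 0.

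The other genes of the pathway gave the setting in hepatocytes. Of 14 genes for the remaining steps of glycolysis 10 had enough UMIs; 8 were above 0 and the median was 0.69. The enolase *Eno1* was higher by 1.30, from 168 to 414 CPM, and the aldolase *Aldoc* lower at -1.83, from 24.5 to 6.87 CPM. *Gapdh* was at 2274 and 3840 CPM, short of 2-fold. Of the 5 genes of gluconeogenesis, the pathway that makes glucose, 2 were lower by 2-fold: *Pck1*, which commits oxaloacetate to it, at -2.06 from 3377 to 812 CPM, and *G6pc*, which frees glucose, at -1.88 from 116 to 31.5 CPM. *Fbp1*, which opposes phosphofructokinase, was at 0.46. None of 15 regulators and branch point genes passed 2-fold. Among them were *Mlxipl*, the carbohydrate-responsive factor ChREBP, at 0.41 and the lipogenic factor *Srebf1* at -0.85. The liver gene *Pfkfb1* was at 0.63.

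In KCs, 10 of the 14 genes for the remaining steps had enough UMIs, 8 were above 0 and the median was 0.65. *Eno1* was higher by 1.20, from 82.3 to 189 CPM. *Aldoa*, the aldolase of most tissues, was lower at -0.28.

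Within the myeloid classes, the hexokinases differed among clusters. Monocytes formed 3 clusters. *Hk3* was highest in cluster m2, led by *Ly6i*, with 143 CPM (117 to 174) and 60.7 CPM (50.8 to 71.9). It was at 51.3 and 36.2 CPM in cluster m3, which held the monocyte markers *F13a1* and *Chil3*, and at 12.2 and 28.3 CPM in cluster m5, led by *Ace*. *Hk2* in the same order was at 115 and 77.1, 58.4 and 60.2, and 61.2 and 44 CPM. Between the libraries the *Hk3* intervals did not overlap in m2, and did overlap in m3 and m5. Cluster m2 held 157 of the 456 NCD monocytes and 320 of the 624 pool monocytes.

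Among KCs, the main cluster m0 had *Hk3* at 177 CPM (169 to 185) and 143 CPM (130 to 157), *Hk2* at 68.9 and 95.6 CPM and *Pkm* at 251 and 349 CPM, all without overlap of the libraries' intervals. Its *Pklr* was at 1.55 and 2.49 CPM. Cluster m4, which scored for hepatocyte markers, had *Pklr* at 25.2 and 100 CPM and *Hk3* at 167 and 50.1 CPM. With m4 left out, the *Pklr* UMIs of KCs fell under 100, so no ratio was taken, and the *Hk3* share was 62.8% and 54.5%. Among NK cells or ILC1s, *Pfkp* was higher in cluster a18, at 103 and 107 CPM, than in cluster a17, at 34 and 50.4 CPM, and *Hk1* was higher in a17, at 96.3 and 85.8 CPM against 64.2 and 52.5 CPM. The *Hk1* intervals of a17 and a18 overlapped in the NCD library and not in the pool.

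**Figure D5:**
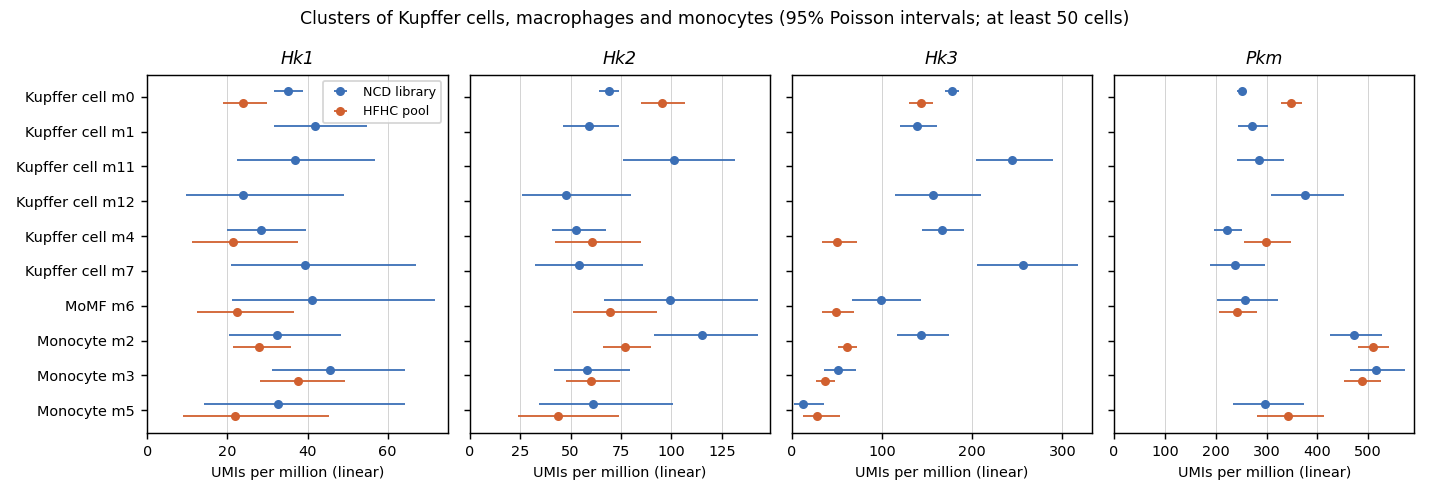
Levels of *Hk1*, *Hk2*, *Hk3* and *Pkm* (CPM, linear axes) in the clusters of KCs, MoMFs and monocytes with at least 50 cells, with the NCD library in blue, the HFHC pool in orange and exact 95% Poisson intervals. *Hk3* is higher in the KC cluster m0 (177 and 143) than in the monocyte cluster m3 (51.3 and 36.2), and *Pkm* is lower in m0 (251 and 349 against 516 and 488). In the monocyte cluster m2 the *Hk3* interval overlaps that of m0 in the NCD library and not in the pool.

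Over the 22 sums of class and library, the genes most like each member were named by Pearson correlation of log2(CPM + 1) among 10651 genes. The points share libraries, and many genes mark the same classes, so these values are a description and carry no p-value. *Pklr* was closest to *Pbld2* (0.987) and *Uox* (0.986), the latter a known liver enzyme. *Hk3* was closest to *Pilrb2* (0.955), *Pilrb1* (0.952) and the Fc receptor *Fcgr3* (0.952), and *Hk2* to *Amz1* (0.958), *Pak1* (0.941) and *Lrrc25* (0.940). *Hk1* was closest to *Sppl3* (0.931), *Pfkp* to *Prkx* (0.898), *Pkm* to *Tmem43* (0.952) and *Pfkfb3* to *Cyb5r1* (0.865). *Ldha* was closest to *Usmg5* (0.883), and the glycolytic *Pgk1* was among its first 3 (0.860). *Pfkl* had no gene above 0.790 (*Vdac3*). Among the members, *Hk2* and *Hk3* had an r of 0.84, *Pkm* and *Pfkfb3* of 0.81, *Hk1* and *Pfkp* of 0.78, and *Pkm* and *Pklr* of -0.65.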

How the data were processed

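The data are 2 BD Rhapsody whole-transcriptome libraries of mouse liver cells, read from the deposited tables of UMI counts per gene and cell. The authors made these counts with the BD Rhapsody WTA Analysis Pipeline 1.10.1 on GRCm38, per the submitters' processing notes, with UMIs corrected by the pipeline and cells called there; the counts are not normalized. The remaining sample, the tag library, has no values of its own in these tables.

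Cells with 200 to 4000 genes and at most 25% mitochondrial UMIs were kept, limits given in the study's methods. The study retained fewer HFHC cells than the 19625 kept here, so its selection of cells was not fully repeated. Values were transformed with sctransform 0.4.2 (4000 variable genes), integrated by reciprocal PCA in Seurat 5.3.0 (R 4.3.3) and clustered on 30 components at a resolution of 0.8 (0.5 for a further clustering of monocytes and macrophages, seed 42), with the 9 genes and the pathway lists left out. A cluster was named for the marker list with the highest mean score if at least 3 of its markers were found in 10% of cells; these limits were set after the clusters were seen, and clusters scoring at least 2 for an unrelated type were called mixed (732 and 253 cells) and not used. Classes under 50 cells in a library are not reported. Doublets were left in; Scrublet in scanpy 1.11.5 called 8.17% of NCD and 2.00% of pool cells, and their removal is an alternative.

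UMIs were summed per class and library with Python 3.11.15, numpy 2.4.6, pandas 2.3.3 and scipy 1.17.1. Levels carry exact Poisson intervals, shares exact binomial (Clopper-Pearson) intervals, and ratios, taken for genes whose UMIs over both tables reached 100, exact conditional intervals. The ratio intervals were run on counts simulated from the Poisson model that they assume. That run could not show how they behave where cells or libraries vary more. The upper limit for a count of 0 is 3 UMIs. Cells are not replicates, so no p-value was computed, and called means at least 2-fold. Shares of cells with a UMI were taken after thinning each cell to 1000 UMIs. Hepatocyte RNA was taken off a class in proportion to its *Alb* UMIs, an alternative planned for shares and added for levels and ratios after the data were seen. Its intervals treat the remaining UMIs as counted, so they leave out the error of the part taken off and are too narrow. Named genes are the 9 members, at most 4 genes per pathway count (those with the highest and lowest values, others chosen after their values were seen) and, for each member, the 3 genes with the highest correlation. The members and lists were chosen with earlier results of these data known. Promoters are from RefSeq (GRCm38.p6), and all 9 members matched by symbol. Some genes of the lists and families are not reported here.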

Additional observations from a re-analysis of the deposited data

Results flagged for a closer look

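*Pfkfb3*, the phosphofructokinase activator enzyme, differed between the libraries in opposite directions in 2 classes. Its log2 ratio of HFHC pool over NCD library was 0.61 in KCs, from 273 and 119 UMIs, and -1.43 in hepatocytes, from 52 and 63 UMIs. The intervals for counting error excluded 0 in both, but with 1 library per condition the difference between the classes was not tested.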

How the results depend on the processing

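No paired analysis was possible because each condition is 1 library, and no replicate could be left out. The *Hk3* share of KC hexokinase stayed within the counting interval of its reported value under all alternatives run, at 62.3% to 63.4% in the NCD library and 51.9% to 54.9% in the pool. The *Pklr* share of hepatocyte pyruvate kinase rose from 89.1% and 96.3% to 92.0% in the NCD library with doublets removed, 92.9% and 97.0% without integration, 93.7% and 97.3% with cells classed one by one from their markers, and 97.0% in the pool with shallow hepatocyte clusters left out. The hepatocyte *Pklr* ratio ran from 0.90 to 1.05, and that of *Ldha*, 1.01 as reported, was 0.93 with scaling by the median ratio and 1.11 with cells thinned to 1000 UMIs. The 5 higher and 1 lower pairs became 2 and 0 with doublets removed, 1 and 0 with thinning, 11 and 5 with a minimum of 20 UMIs, and 1 higher with hepatocyte RNA taken off, where the 4 *Pklr* pairs outside hepatocytes were under the minimum and not compared; the lower pair was 0 without integration, at a resolution of 1.0 and without the shallow clusters, where *Pfkfb3* in hepatocytes had under 100 UMIs. Of the 36 ratios whose interval excluded 0, direction turned for *Ldha* in B cells (-0.18, with an interval that includes 0) and endothelial cells (-0.32) with hepatocyte RNA taken off, *Ldha* in monocytes (0.06) with cells classed one by one, *Pfkfb3* in T cells (0.18) with thinning and *Pfkfb3* in endothelial cells (0.02) with no upper limit on genes. In other alternatives no direction turned; ratios that fell under the UMI minimum were not compared. MoMFs under 50 cells in a library gave no value without integration, nor did they with the members and lists kept among the variable genes. Depth limits MoMFs most, with 291873 and 673766 UMIs, and shares of cells without thinning follow depth. The cause of these shifts was not tested.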
